A study of Mus musculus with 12 samples.

Results

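The 47 genes described here act in G2 and mitosis, and were chosen by name from that role. All 47 had a probe on the array, 82 probes in all, and where a gene had several, the one with the highest mean level stands for it. All 47 were among the 17933 genes tested, and each was well above background on all 12 arrays, so the filter on low values removed none of them. RNA was measured on 12 one-colour Agilent mouse arrays, 3 for each of 4 groups of cultured mouse CD4+ T cells. All groups started from naive CD4+CD62L+ cells of C57BL/6 spleen and lymph nodes, activated with antibodies to CD3 and CD28 and cultured for 5 days. Th2 cultures received IL-4 and an antibody to IFN-γ. Th9 cultures received IL-4 at 20 ng/ml, TGF-β at 2 ng/ml and the same antibody to IFN-γ. Treg cultures received TGF-β and an antibody to IL-4, with IL-2 added when they were expanded on day 3. The fourth group was Th9 cells restimulated with 1 µg/ml of antibody to CD3 for 6 h, and the other groups were not restimulated. Whether the 3 arrays of a group hold RNA of different cultures or mice is not stated in the labels, and the p-values therefore describe the spread among these arrays, which may be technical. The arrays lay on 3 slides of 4, and slide overlaps largely with group.

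Levels below are log2 of the signal relative to the 75th percentile of the array, so that 0 is that percentile, and differences are log2 differences between group means ± SE. A gene was called higher or lower at an adjusted p under 0.05, from limma with Benjamini-Hochberg adjustment over all genes tested. A level belongs to 1 probe and was not compared between genes. The signature genes of the cultures were checked first. Il9 stood at -1.69 ± 0.66 (SD, n = 3) in Th9 and 5.52 ± 0.62 in restimulated Th9 cultures and was not well above background in Th2 or Treg. Foxp3, the Treg transcription factor, stood at 0.57 ± 0.19 (SD, n = 3) in Treg and was lower in Th9 by 2.55 ± 0.22 (SE, adjusted p = 3.1e-06). Il4 and Gata3, a cytokine gene and a transcription factor of Th2 cells, were higher in Th2 than Treg by 11.03 ± 0.40 (adjusted p = 9.6e-09) and 1.62 ± 0.16 (adjusted p = 9.3e-06). In Treg, 2 of the 4 signature genes were well above background on every array and 1 on none, so 11.03 may not be an exact measure. None of the 4 was called lower in Th9 than Th2, so Il4 and Gata3 do not separate these 2 cultures. The 9 T cell marker genes tested were well above background on all 12 arrays.

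Cells enter mitosis when cyclin B-bound CDK1 is freed of inhibitory phosphates by CDC25 phosphatases, and Polo and Aurora kinases then build the spindle. The spindle checkpoint holds the anaphase-promoting complex in check until every kinetochore is attached, after which securin and the cyclins are destroyed and the cell divides. Transcripts of most of these genes are made in a wave late in the cell cycle, under the control of FOXM1, B-MYB, the CCAAT-binding factor NF-Y and complexes that bind a short promoter element called CHR. In T cells the wave follows antigen-receptor stimulation and the growth cytokine IL-2.

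Promoters are shown because most of these genes, though not all, hold the same pair of short motifs near their start. RefSeq promoter windows (250 bases before to 50 after the gene start, GRCm38.p6) were found for 40 of the 47 genes. Only the first listed window of each gene was used, so windows of other starts were not searched. The search covered CCAAT, the core of the NF-Y site, and TTTGAA or TTCGAA, taken here as the letters of the CHR element, on both strands. No other letters were searched, so a window without these may still hold a variant of either element. CCAAT was present in 30 of 40 windows, against 37.9% of 27025 windows of all genes. At least 2 copies were present in 52.5%, against 12.2%. TTTGAA or TTCGAA was present in 29 of 40 (72.5%), against 19.4%, and both kinds together in 65.0%, against 7.7%. The 6 stretches below were chosen after their values were seen: Hmmr follows the mean of the other genes most closely, Ccnb2 fell after restimulation, Cdk1 and Bub3 rose, Ccnb1 was not called, and Pttg1 went against the others. Each runs 5′ to 3′ on the gene's strand from 120 bases before the start to 30 after it, with both motifs in capitals on either strand.
Hmmr (chr11:40733408-40733557, minus strand): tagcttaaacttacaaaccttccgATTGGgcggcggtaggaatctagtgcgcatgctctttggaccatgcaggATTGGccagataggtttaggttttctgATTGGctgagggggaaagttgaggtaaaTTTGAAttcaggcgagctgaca
Ccnb2 (chr9:70421525-70421674, minus strand): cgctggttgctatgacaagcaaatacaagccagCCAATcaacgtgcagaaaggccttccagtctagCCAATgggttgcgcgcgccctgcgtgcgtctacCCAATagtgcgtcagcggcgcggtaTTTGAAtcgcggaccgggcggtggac
Cdk1 (chr10:69352883-69353032, minus strand): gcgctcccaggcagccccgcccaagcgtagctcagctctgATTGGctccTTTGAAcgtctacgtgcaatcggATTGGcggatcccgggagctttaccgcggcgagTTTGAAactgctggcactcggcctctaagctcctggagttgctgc
Bub3 (chr7:131560250-131560399, plus strand): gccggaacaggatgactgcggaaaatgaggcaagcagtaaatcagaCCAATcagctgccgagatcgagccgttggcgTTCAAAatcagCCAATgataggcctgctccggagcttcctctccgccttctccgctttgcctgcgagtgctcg
Ccnb1 (chr13:100786457-100786606, minus strand): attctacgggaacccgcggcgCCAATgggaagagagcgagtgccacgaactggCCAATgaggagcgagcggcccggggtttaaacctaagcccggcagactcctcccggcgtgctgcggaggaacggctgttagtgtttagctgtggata
Pttg1 (chr11:43425952-43426101, minus strand): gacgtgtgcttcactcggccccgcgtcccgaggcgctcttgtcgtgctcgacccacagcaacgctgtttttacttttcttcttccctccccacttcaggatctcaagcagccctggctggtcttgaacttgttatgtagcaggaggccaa

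The Ccnb2 stretch holds CCAAT at -87, -54 and -21 and TTTGAA at 5, counting from the gene start. Cdk1 holds its copies of CCAAT, read as ATTGG on this strand, at -80 and -48, with TTTGAA at -71 and -15. Bub3 holds CCAAT at -74 and -32 with TTTGAA, read as TTCAAA, at -43. Ccnb1 holds CCAAT at -99 and -67 and no TTTGAA or TTCGAA in its window, and Pttg1 holds neither motif in its window. A match is a description of the letters and not evidence of binding.

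Levels differed between groups and also within them. After subtracting each gene's mean over the 12 arrays, the average over the 47 genes was -0.03, 0.37 and 0.82 on the Th2 arrays, 0.32, 0.19 and 0.71 on the Th9 arrays, -0.25, -0.08 and -0.25 on the restimulated Th9 arrays, and -0.58, -1.04 and -0.20 on the Treg arrays. The Treg arrays lay lowest, apart from the third, which lay within the range of the restimulated arrays. The array numbered 3 had the highest level for 47 of the 47 genes in Th2, 42 in Th9 and 45 in Treg, but for 9 in restimulated Th9. Over all genes tested it was highest for 33.5%, 36%, 41.7% and 38.7% in the same order. Without the arrays numbered 3, an alternative chosen after seeing the data, 40 genes instead of 35 were higher in Th9 than Treg and 40 instead of 36 in Th2 than Treg, and 20 instead of 22 fell after restimulation. Treg had the lowest group mean for 36 of the 47 genes, restimulated Th9 for 10 and Th9 for 1, Pttg1. In bulk RNA, fewer cells in mitosis and less RNA per mitotic cell cannot be told apart.

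**Figure D1:**
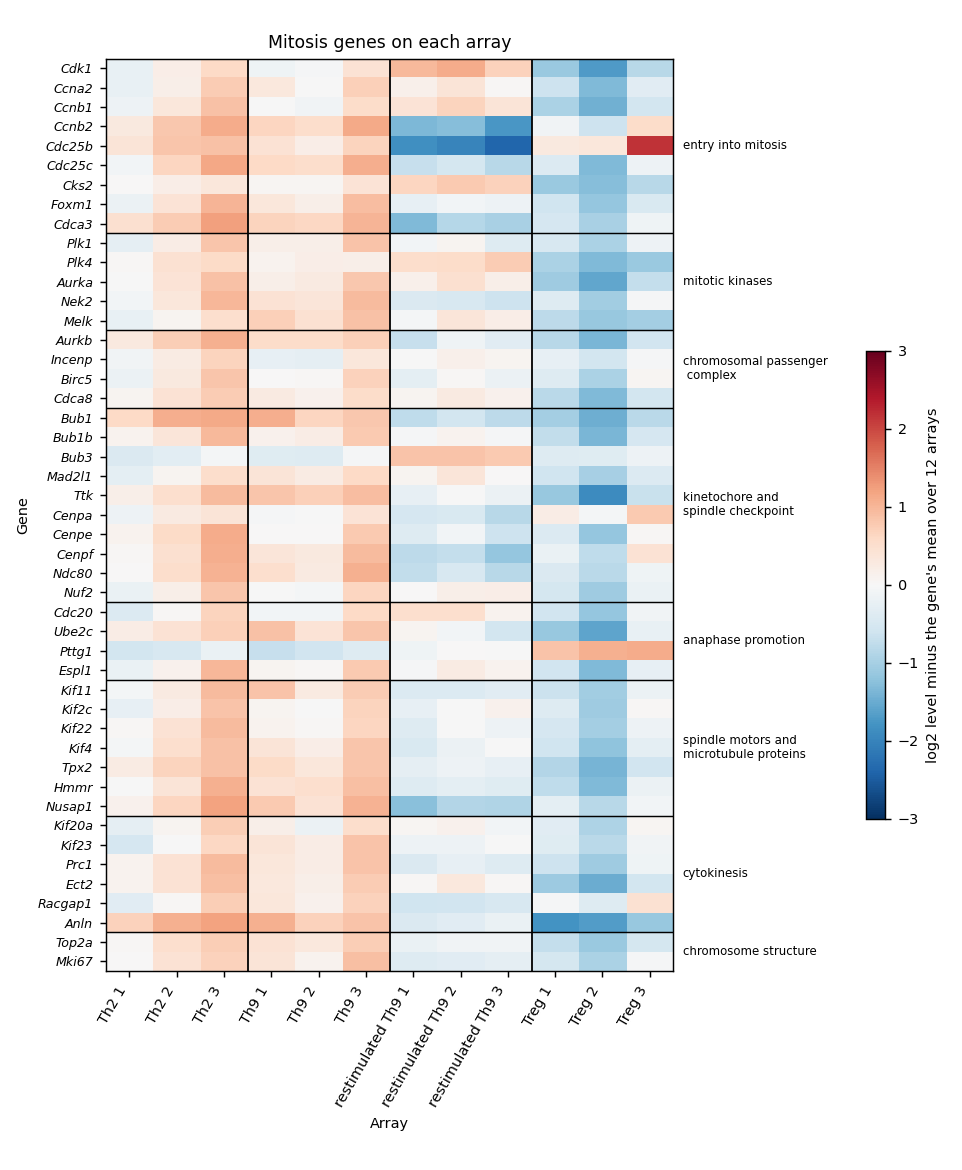
Level of each of the 47 genes (rows, grouped by role) on each of the 12 arrays (columns), as log2 minus the gene's mean over the 12 arrays; red is above that mean and blue below. Averaged by group, most rows are red in Th2 and Th9 and blue in Treg, with Pttg1 the reverse. Single arrays vary, and the first Th2 array averages -0.03 over the 47 genes. Ccnb2 and Cdc25b are darkest blue after restimulation.

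The 47 genes did not move as 1 block. Across the 12 arrays, which share groups and replicate numbers, the median correlation between pairs of these genes was 0.79 and pairs ranged from -0.91 to 0.99. Hmmr, a microtubule-binding hyaluronan receptor, followed the mean of the other genes most closely (r = 0.99), followed by Prc1 (0.99), Foxm1 (0.98) and Kif4 (0.98). The weakest were Cenpa (0.30), Cdc25b (0.19), Bub3 (-0.10) and Pttg1 (-0.74). These are descriptions over 12 arrays with no test.

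Th9 and Th2 cultures were compared first, since by the labels they differ in the added TGF-β. No mitosis gene was called in either direction by limma, against 7.76% of all genes tested called higher in Th9 and 9.24% called lower. At an unadjusted p under 0.05 the count was 1, Melk, a kinase of dividing cells. Its levels were 1.60, 1.34 and 1.77 in Th9 and 0.66, 0.98 and 1.39 in Th2, which overlap, and the difference of 0.56 ± 0.20 had an adjusted p of 0.0788. The median difference of the 47 genes was -0.01, beside -0.03 for all genes, and the range was -0.33 to 0.56. Leaving out 1 array at a time moved that median from -0.22 (without Th2 replicate 1) to 0.22 (without Th2 replicate 3), so its sign is not settled. In the fit without slide, the 95% interval lay within 1 log2 unit either way for 44 genes. The exceptions were Cdc25b, Cenpe and Kif23. With slide as a fixed block the median SE over the 47 genes rose from 0.28 to 0.71, and the intervals leave that uncertainty out. A change smaller than 1 log2 unit is not excluded by the arrays for most of the genes, nor is a larger one if slide is allowed for.

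The next largest differences between Th9 and Th2 were small. Kif23, a motor of the central spindle, measured 1.40, 1.23 and 1.86 in Th9 and 0.50, 1.00 and 1.64 in Th2, a difference of 0.45 ± 0.28 (adjusted p = 0.304). Incenp, the scaffold of the chromosomal passenger complex, measured 4.67, 4.65 and 5.25 in Th9 and 4.81, 5.16 and 5.57 in Th2 (-0.33 ± 0.22, adjusted p = 0.337). Cenpe, a kinetochore motor, measured 3.62, 3.63 and 4.41 in Th9 and 3.72, 4.18 and 4.73 in Th2 (-0.33 ± 0.35, adjusted p = 0.567). The groups overlapped for all 47 genes, whereas over all genes they lay apart with Th9 higher for 18.3% and with Th9 lower for 21.3%. Taken as pairs by replicate number, Th9 minus Th2 was 0.94, 0.36 and 0.38 for Melk, 0.90, 0.23 and 0.22 for Kif23, -0.15, -0.51 and -0.32 for Incenp and -0.10, -0.55 and -0.32 for Cenpe, each with 1 sign in all 3 pairs. That held for 3 genes higher in Th9, with Mad2l1 the third, and 3 lower, with Pttg1 the third, against 28% and 33.3% of all genes. With the pairs as a block none of these was called, the lowest adjusted p being that of Melk, 0.0840. Th9 and Th2 arrays were never on the same slide.

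The mitosis genes were higher in both helper cultures than in Treg. In Th9 against Treg, 35 of 47 were higher, against 28.7% of all genes tested, and 1 was lower, against 35.3%. In Th2 against Treg, 36 were higher, against 29.3%, and 1 was lower, against 33.5%. The median difference was 1.10 for Th9 minus Treg, beside -0.11 for all genes, and 1.06 for Th2 minus Treg, beside -0.08. The Th9 arrays lay wholly above the Treg arrays for 35 genes, against 30.9% of all genes, and wholly below for 1, against 38.4%. The Th2 arrays lay wholly above for 32, against 31.9%, and wholly below for 1, against 37.4%. The change was at least 2-fold for 29 of those higher in Th9, against 15.4% of all genes, and for 27 of those higher in Th2, against 15.7%. It was at least 2-fold for the 1 gene lower in each, against 16.8% and 15.8%. Both comparisons use the same Treg arrays, so their values are set side by side and neither supports the other.

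Of the 9 genes of mitotic entry, 8 were higher in each comparison. Cdk1, the mitotic kinase, measured 0.94, 1.04 and 1.49 in Th9, 0.83, 1.27 and 1.66 in Th2 and -0.04, -0.64 and 0.23 in Treg. Neither helper culture overlapped Treg, and the differences were 1.31 ± 0.26 (adjusted p = 0.00135) and 1.40 ± 0.26 (adjusted p = 0.000846). Ccnb1, a cyclin that activates it, measured 0.83, 0.75 and 1.39 in Th9, 0.69, 1.19 and 1.73 in Th2 and -0.11, -0.60 and 0.29 in Treg. All 6 helper arrays stood above the Treg arrays, by 1.13 ± 0.29 (adjusted p = 0.00561) and 1.34 ± 0.29 (adjusted p = 0.00203). Its partner Ccnb2 measured 3.76, 3.64 and 4.25 in Th9, 3.39, 3.92 and 4.22 in Th2 and 3.01, 2.50 and 3.67 in Treg. Here the third Treg array reached into the helper range and the differences were smaller, 0.82 ± 0.30 (adjusted p = 0.0345) and 0.79 ± 0.30 (adjusted p = 0.0423). The second of these missed the threshold after quantile normalization (adjusted p = 0.0577), and both missed it without the filter on dim probes (adjusted p = 0.0553 and 0.0681).

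Foxm1, the transcription factor of many of these genes, measured 0.65, 0.48 and 1.23 in Th9, 0.14, 0.72 and 1.32 in Th2 and -0.28, -0.86 and -0.16 in Treg. Every helper array stood above every Treg array, with differences of 1.22 ± 0.30 (adjusted p = 0.00415) and 1.16 ± 0.30 (adjusted p = 0.0057). Cdc25b, a phosphatase that activates CDK1, was the entry gene not called. Its Treg levels of 3.25, 3.29 and 5.13 were widely spread, with the third array far above the others. The Th9 levels were 3.38, 3.16 and 3.62 and the Th2 levels 3.34, 3.79 and 3.83, and neither difference was called (-0.51 ± 0.42, adjusted p = 0.313, and -0.24 ± 0.42, adjusted p = 0.642).

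All 5 genes grouped here as mitotic kinases (Plk1, Plk4, Aurka, Nek2 and Melk) were higher in both. Plk1, which acts at the centrosome and kinetochore, measured 3.12, 3.14 and 3.81 in Th9, 2.69, 3.17 and 3.78 in Th2 and 2.47, 2.00 and 2.81 in Treg. Th9 lay clear of Treg by 0.93 ± 0.30 (adjusted p = 0.0191), while the lowest Th2 array fell inside the Treg range and the difference was 0.79 ± 0.30 (adjusted p = 0.0401; 0.0648 without the filter on dim probes). Melk was higher by 1.66 ± 0.20 in Th9 (adjusted p = 3.23e-05) and by 1.10 ± 0.20 in Th2 (adjusted p = 0.000607), with Treg levels of 0.11, -0.25 and -0.14. Of the passenger complex, Aurkb, its kinase, measured 1.75, 1.75 and 1.91 in Th9, 1.49, 1.93 and 2.25 in Th2 and 0.35, -0.19 and 0.62 in Treg. All helper arrays were above all Treg arrays, by 1.54 ± 0.24 (adjusted p = 0.000208) and 1.63 ± 0.24 (adjusted p = 0.00014). Cdca8 was higher in both, and Birc5, or survivin, in neither. Incenp passed the threshold in Th2 (0.55 ± 0.22, adjusted p = 0.0475) and not in Th9 (0.22 ± 0.22, adjusted p = 0.394), and its difference between Th9 and Th2, given above, was not called. After quantile normalization the Th2 value for Incenp was 0.33 (adjusted p = 0.209).

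Of 10 kinetochore and checkpoint genes, 6 were higher in Th9 than Treg and 7 in Th2 than Treg. Bub1, a checkpoint kinase, measured 1.56, 1.11 and 1.29 in Th9, 1.08, 1.57 and 1.61 in Th2 and -0.53, -0.98 and -0.33 in Treg. Every helper array stood above 1 and every Treg array below 0, and the differences were 1.93 ± 0.20 (adjusted p = 1.08e-05) and 2.03 ± 0.20 (adjusted p = 7.31e-06). Ttk, the checkpoint kinase also called MPS1, measured -1.79, -1.91 and -1.69 in Th9, -2.45, -2.12 and -1.67 in Th2 and -3.76, -4.52 and -3.29 in Treg. The groups were again apart, by 2.06 ± 0.28 (adjusted p = 8e-05) and 1.78 ± 0.28 (adjusted p = 0.000233). Not called in either were Cenpa, Cenpf and Bub3. Bub3, another checkpoint protein, differed from Treg by 0.03 ± 0.13 in each, and its levels of 3.27, 3.31 and 3.50 in Treg lay among those of Th9 (3.29, 3.26 and 3.63) and Th2 (3.23, 3.35 and 3.60). A dimmer Bub3 probe gave 0.16 in Th9 and 0.05 in Th2. The dimmest of those tested gave -0.59 in Th9 (adjusted p = 0.00387 by limma) and -0.25 in Th2.

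Anln, which encodes the cleavage-furrow scaffold anillin, showed the largest difference from Treg of the 47 genes in both comparisons on the probes used. It measured -1.67, -2.05 and -1.88 in Th9, -2.04, -1.67 and -1.54 in Th2 and -4.53, -4.42 and -3.87 in Treg. The helper arrays all lay above -2.1 and the Treg arrays all below -3.8, and the differences of 2.41 ± 0.19 (adjusted p = 1.58e-06) and 2.52 ± 0.19 (adjusted p = 1.2e-06) are 5.31-fold and 5.74-fold. A second, dimmer Anln probe gave smaller differences, 1.40 in Th9 and 1.73 in Th2. Of the 6 cytokinesis genes, 4 were higher in Th9 and 3 in Th2. Kif23 passed in Th9 (0.92 ± 0.28, adjusted p = 0.014) and not in Th2 (0.47 ± 0.28, adjusted p = 0.164), while Kif20a and Racgap1 passed in neither. A second, dimmer Racgap1 probe gave 1.28 in Th9 and 1.15 in Th2, beside 0.38 and 0.14 for the probe used. Of 7 spindle motors and microtubule proteins, 6 were higher in each, with Tpx2, an activator of Aurora A, at 1.53 ± 0.22 (adjusted p = 0.000136) and 1.55 ± 0.22 (adjusted p = 0.000125). Kif2c was the exception in each.

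The genes of chromosome structure were higher in both. Top2a, the topoisomerase that untangles sister chromatids, measured 3.05, 2.94 and 3.36 in Th9, 2.65, 3.13 and 3.36 in Th2 and 1.92, 1.52 and 2.10 in Treg. Its groups were apart by 1.27 ± 0.20 (adjusted p = 0.000237) and 1.20 ± 0.20 (adjusted p = 0.000352). Mki67, the proliferation antigen Ki-67, measured 4.71, 4.42 and 5.23 in Th9, 4.32, 4.76 and 5.01 in Th2 and 3.78, 3.36 and 4.29 in Treg. The highest Treg array came just below the lowest helper array, and the differences were 0.98 ± 0.26 (adjusted p = 0.00768) and 0.89 ± 0.26 (adjusted p = 0.0126).

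The 4 genes of anaphase promotion did not move together. Ube2c, the ubiquitin-conjugating enzyme of the anaphase-promoting complex, measured 3.11, 2.66 and 3.06 in Th9, 2.46, 2.69 and 2.95 in Th2 and 1.09, 0.66 and 2.02 in Treg. It was higher by 1.68 ± 0.31 (adjusted p = 0.0007) and 1.44 ± 0.31 (adjusted p = 0.00199), with no overlap. Espl1, or separase, was higher in both (1.02 ± 0.34 and 1.01 ± 0.34), and Cdc20 in neither. Pttg1, or securin, the inhibitor of separase, went the other way, and was the 1 gene lower in each. It measured 2.53, 2.65 and 2.83 in Th9, 2.68, 2.73 and 3.02 in Th2 and 4.07, 4.28 and 4.34 in Treg. Every Treg array exceeded every helper array by over 1, and the differences were -1.56 ± 0.13 (adjusted p = 1.73e-06) and -1.42 ± 0.13 (adjusted p = 3.45e-06). The Pttg1 value rests on 1 probe.

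**Figure D2:**
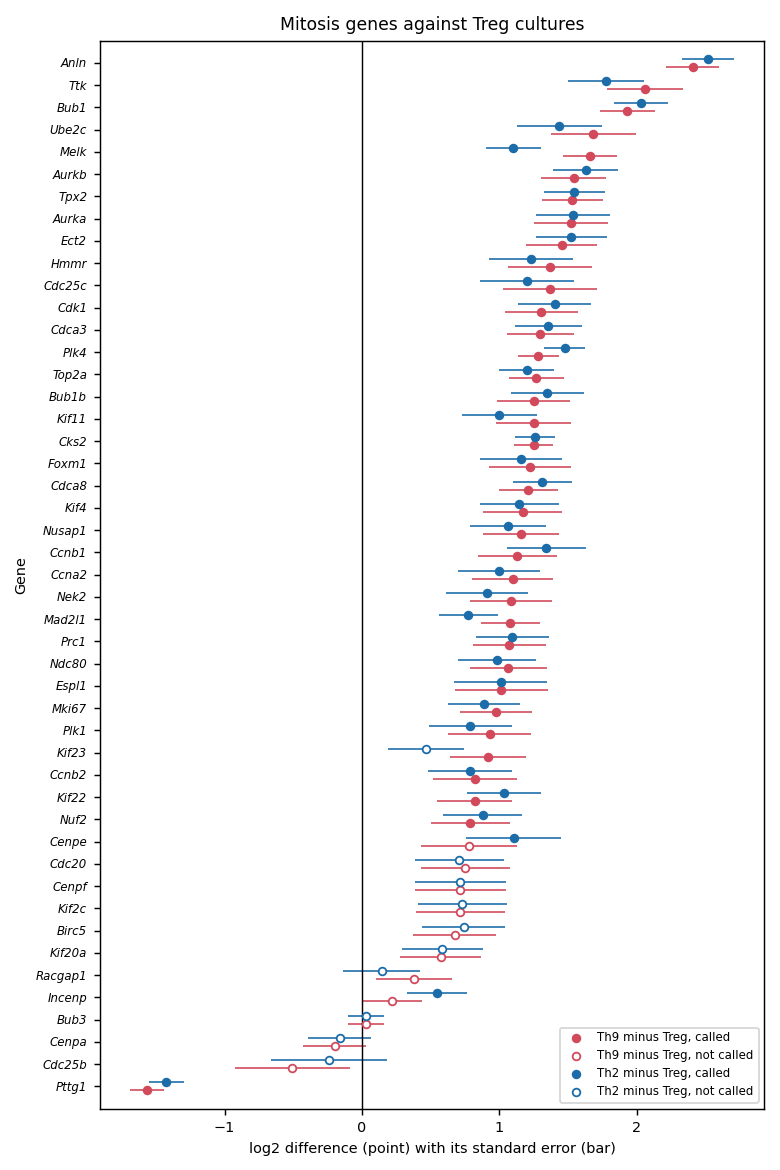
Log2 difference from Treg (x axis) of each mitosis gene (y axis, ordered by Th9 minus Treg) in Th9 (red) and Th2 (blue), with bars of 1 SE; filled points passed the adjusted p threshold. Anln is furthest right at 2.41 and 2.52, and Pttg1 is furthest left at -1.56 and -1.42.

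Slide and cell content bear on the Treg comparisons. Th9 and Treg arrays were never on the same slide. On the slide that held the 3 Th2 arrays and 1 Treg array, 45 of 47 genes were higher in Th2 and the median difference was 0.98. With slide as a fixed block, 15 genes remained higher in Th9 and 17 in Th2, all among those called without the block, and Pttg1 stayed lower in both. Among the genes given by array above, those no longer called were Ccnb2 (adjusted p = 0.146 in Th9 and 0.159 in Th2), Foxm1 (0.130 and 0.0994), Plk1 (0.116 and 0.205) and Mki67 (0.247 and 0.0948), as well as Ccnb1 in Th9 (0.116), Kif23 in Th9 (0.300) and Incenp (0.234) and Cenpe (0.143) in Th2. The called genes kept their sign in every case, 36 in the first comparison and 37 in the second, while the median SE over the 47 genes rose from 0.28 to 0.57 and 0.43. Marker genes of other cells moved with Treg as well. The summed level of 10 B cell markers, on a linear scale where 1 is the array's 75th percentile, was 78.4 to 110.6 in Treg, 6.35 to 8.80 in Th9 and 3.55 to 6.06 in Th2, and all 10 were well above background on every Treg array. Of these, 9 of 10 were lower in Th9 and 10 of 10 in Th2 than in Treg. The 9 T cell markers summed to 418 to 519 in Treg, 222 to 238 in Th9 and 248 to 277 in Th2. The sum of 10 myeloid markers was 1.54 to 2.81 in Treg, 2.08 to 3.12 in Th9 and 2.50 to 3.06 in Th2. Single myeloid markers differed in both directions. Of the 8 tested, 2 were higher and 4 lower than Treg in each helper culture (25% and 50%). Over all genes these shares were 28.7% and 35.3% in Th9 and 29.3% and 33.5% in Th2. The myeloid differences ran from -7.78 to 2.87 in Th9 and from -7.74 to 3.14 in Th2. The sum of 6 CD8 T and NK cell markers was 15.2 to 20.8 in Treg, 20.7 to 28.0 in Th9 and 15.1 to 20.6 in Th2. The part of other cell types in the result was not tested.

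Restimulation of Th9 cells for 6 h split the mitosis genes. Relative to unstimulated Th9 cultures 22 of 47 fell, against 30.5% of all genes tested called lower, and 5 rose, against 33.1% called higher. The median difference was -0.63, beside 0.02 for all genes. It was -0.42 without Th9 replicate 3, with 15 genes lower, and -0.43 without the arrays numbered 3. The falls no longer called without Th9 replicate 3 were those of Melk, Cenpa, Ube2c, Hmmr, Prc1, Top2a and Mki67. The fall was at least 2-fold for 11 genes, against 16.6% of all genes, and the rise for 1, against 17.7%. The 3 restimulated arrays lay wholly below the unstimulated arrays for 29 genes, against 32.9% of all genes, and wholly above for 5, against 35.3%. The share of genes that fell is above the share over all genes, and the share that rose is below it.

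Cdc25b fell most among the 47 genes. Its levels went from 3.38, 3.16 and 3.62 to 1.10, 0.98 and 0.58, a fall of 2.50 ± 0.42 on the log2 scale (5.64-fold, adjusted p = 0.000353). The other probes of this gene gave -2.58 and -2.80. Ccnb2 followed, from 3.76, 3.64 and 4.25 to 1.75, 1.82 and 1.36 (-2.24 ± 0.30, 4.72-fold, adjusted p = 7.21e-05). For both genes every restimulated array stood far below every unstimulated one. Cdca3, which triggers the entry into mitosis by degradation of the kinase WEE1, went from 3.16, 3.13 and 3.52 to 1.19, 1.65 and 1.53 (-1.82 ± 0.24, adjusted p = 6.35e-05). Cdc25c, a second CDK1 phosphatase, fell by 1.42 ± 0.34 (adjusted p = 0.00385).

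The other genes of mitotic entry did not follow Ccnb2. Cdk1 rose from 0.94, 1.04 and 1.49 to 2.04, 2.18 and 1.74 (0.83 ± 0.26, adjusted p = 0.0177), with no overlap. A second Cdk1 probe, much dimmer, gave 0.04, and the mean of both gave 0.44, which was not called (adjusted p = 0.0597). Cks2, the CDK1-binding subunit, rose from 4.07, 4.06 and 4.40 to 4.65, 4.80 and 4.70 (0.54 ± 0.14, adjusted p = 0.00647), and both its probes agreed at 0.54 and 0.50. After quantile normalization, Cks2 gave 0.22 (adjusted p = 0.190) and was not called. Ccnb1 measured 1.27, 1.52 and 1.23 after restimulation against 0.83, 0.75 and 1.39 before. These overlap, and the difference of 0.35 ± 0.29 was not called (adjusted p = 0.32, 95% interval -0.30 to 0.99). Foxm1, at 0.05, 0.23 and 0.16, lay below its unstimulated levels on every array but missed the threshold (-0.64 ± 0.30, adjusted p = 0.0817). Ccna2, the cyclin of S phase and mitotic entry, differed by -0.14 ± 0.30.

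**Figure D3:**
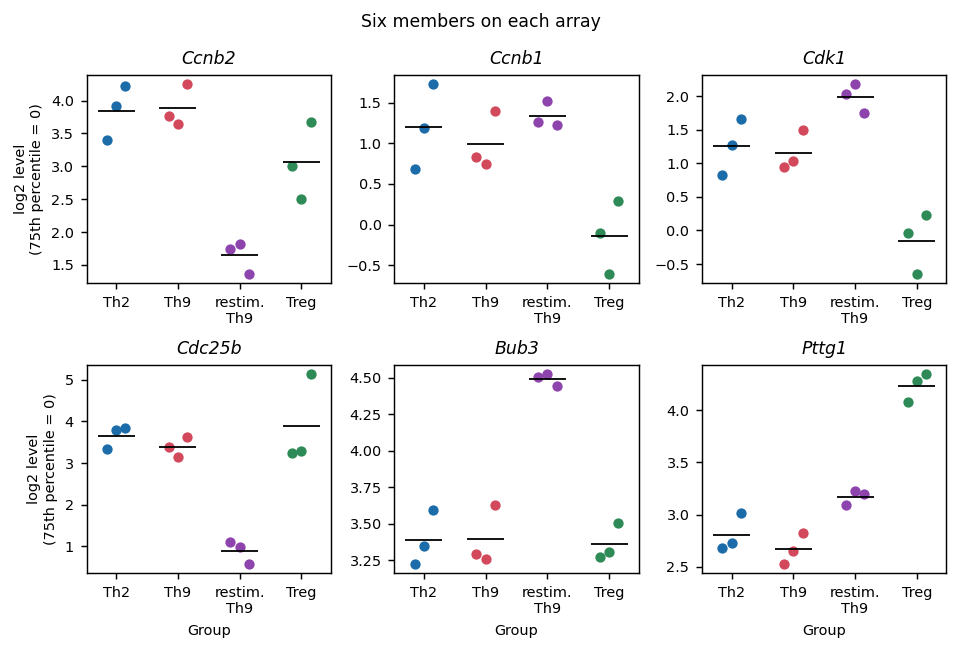
Log2 level (y axis, 0 is the array's 75th percentile; scales differ between panels) of 6 mitosis genes on each array, by group (x axis), with a line at the group mean. Ccnb2 and Cdc25b lie lowest after restimulation, Bub3 and Cdk1 highest, and Pttg1 is highest in Treg.

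Kinase genes were also split. Plk4, the centriole duplication kinase, rose by 0.45 ± 0.15 (adjusted p = 0.0208; 0.0551 with the mean of its probes). Nek2 fell by 1.10 ± 0.30 (adjusted p = 0.00749) and Melk, at 0.81, 1.26 and 1.09 after restimulation, by 0.52 ± 0.20 (adjusted p = 0.0403; 0.0658 without the filter on dim probes). Plk1 measured 2.87, 3.03 and 2.57, below its unstimulated arrays, but its difference of -0.53 ± 0.30 was not called (adjusted p = 0.145). Aurka, the centrosomal Aurora kinase, differed by -0.14 ± 0.27, with a 95% interval of -0.74 to 0.46. Its relative Aurkb fell from 1.75, 1.75 and 1.91 to 0.51, 1.07 and 0.85 (-0.99 ± 0.24, adjusted p = 0.00359), with no overlap. The other 3 passenger genes were not called. The difference between the responses of the Aurora kinases was not tested.

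Among kinetochore and checkpoint genes 5 of 10 fell and 1 rose. Bub1 fell from 1.56, 1.11 and 1.29 to -0.28, -0.07 and -0.30 (-1.54 ± 0.20, adjusted p = 4.85e-05), with every restimulated array below 0. Cenpf, a kinetochore protein, fell by 1.42 ± 0.33 (adjusted p = 0.00311) and Ndc80, the microtubule anchor, by 1.29 ± 0.28 (adjusted p = 0.00209). Ttk went from -1.79, -1.91 and -1.69 to -2.88, -2.63 and -2.80 (-0.98 ± 0.28, adjusted p = 0.00985). Cenpa, the centromeric histone, fell by 0.72 ± 0.23 (adjusted p = 0.017). Bub3 rose against them, from 3.29, 3.26 and 3.63 to 4.51, 4.52 and 4.44, and the rise of 1.10 ± 0.13 (2.14-fold, adjusted p = 2.82e-05) was the largest of the 47. Its other probes gave 1.24 and 0.73. Bub1b, Mad2l1, Cenpe and Nuf2 were not called.

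Nusap1, a microtubule-bundling protein of the spindle, fell from 2.41, 2.06 and 2.65 to 0.36, 0.75 and 0.71 (-1.77 ± 0.28, adjusted p = 0.000218). Kif11, the motor that separates the spindle poles, fell by 1.01 ± 0.27 (adjusted p = 0.0075), Hmmr by 0.96 ± 0.31 (adjusted p = 0.0175) and Tpx2 by 0.80 ± 0.22 (adjusted p = 0.00835). Kif2c, Kif22 and Kif4 were not called, though all 7 genes of this group had negative differences. Of the cytokinesis genes, Anln, at -3.17, -3.07 and -2.93, fell by 1.19 ± 0.19 (adjusted p = 0.000241), Racgap1 by 0.94 ± 0.28 (adjusted p = 0.0118) and Prc1, the crosslinker of the central spindle, by 0.83 ± 0.27 (adjusted p = 0.0188). Kif20a, Kif23 and Ect2 were not called. The second, dimmer Anln probe gave -0.65.

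Top2a measured 2.42, 2.52 and 2.52 after restimulation and fell by 0.63 ± 0.20 (adjusted p = 0.0171). Averaging its 3 probes, of which the dimmest gave 0.90, left -0.10 (adjusted p = 0.731). Mki67 measured 3.93, 3.97 and 4.05, below each unstimulated array, and fell by 0.80 ± 0.26 (adjusted p = 0.0205). In the anaphase group Ube2c, at 2.31, 2.16 and 1.69, fell by 0.89 ± 0.31 (adjusted p = 0.0266). Pttg1 rose from 2.53, 2.65 and 2.83 to 3.09, 3.23 and 3.20 (0.50 ± 0.13, adjusted p = 0.00465), though after quantile normalization it gave 0.23 and was not called (adjusted p = 0.126). Cdc20 and Espl1 were not called.

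**Figure D4:**
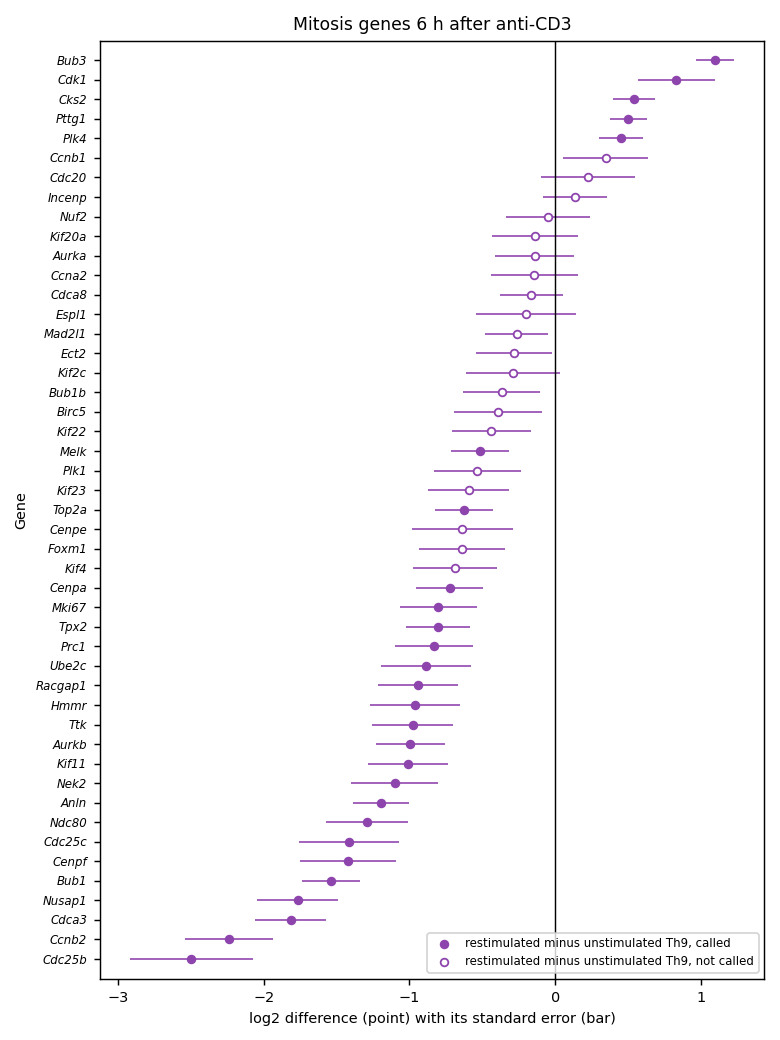
Log2 difference between restimulated and unstimulated Th9 cultures (x axis) of each mitosis gene (y axis, ordered by the difference), with bars of 1 SE; filled points passed the adjusted p threshold. The points run from Cdc25b at -2.50 to Bub3 at 1.10, with 22 filled on the left and 5 on the right.

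One slide held 1 restimulated and the 3 unstimulated Th9 arrays. On it 39 of 47 genes were lower after restimulation and the median difference was -0.60. With slide as a fixed block 11 genes remained lower (Ccnb2, Cdc25b, Cdc25c, Cdca3, Bub1, Cenpa, Cenpf, Ndc80, Ube2c, Nusap1 and Anln) and 3 higher (Plk4, Bub3 and Pttg1), and all 27 called genes kept their sign. The 10 B cell markers summed to 1.14 to 4.58 in restimulated cultures, below the 6.35 to 8.80 of Th9, and 6 of 10 fell. The 6 CD8 T and NK cell markers summed to 2.92 to 19.1, below the 20.7 to 28.0 of Th9, and of the 5 tested 3 fell and 0 rose. The part of these differences in the result was not tested.

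The promoter motifs were counted by the response to restimulation. Of the 19 genes that fell and have a promoter window, 15 held CCAAT, 16 held TTTGAA or TTCGAA and 14 held both. Of the 16 not called, 12, 11 and 10 did, and of the 5 that rose, 3, 2 and 2 did. The Ccnb2 and Cdk1 stretches shown above hold both motifs, and on the probes used these genes moved in opposite directions. The Cdk1 rise was not called by limma with the mean of its probes (adjusted p = 0.0597) or with slide as a fixed block (adjusted p = 0.249). Holding neither were Pttg1 and Plk4 among those that rose, Melk and Nusap1 among those that fell, and Birc5, Mad2l1 and Nuf2. These counts are descriptions.

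Genes of other cell-cycle steps, in lists chosen by role, were set beside the mitosis genes. Over all genes, 33.1% rose and 30.5% fell after restimulation. Of 40 DNA replication genes, 32 rose (80%) and 1 fell (2.5%), with a median of 1.08. Cdc6, which loads the replicative helicase, rose by 2.40 ± 0.33 (adjusted p = 8.16e-05), and Fen1, the flap endonuclease, by 2.14 ± 0.25 (adjusted p = 2.26e-05). Averaged over the replication genes and centred as above, the restimulated arrays stood at 0.87 to 0.99, above every other array, whereas for the mitosis genes they stood between the unstimulated helper and the Treg means. A list of 10 G1 genes holds cyclins, their kinases, the phosphatase gene Cdc25a and Myc, a growth-induced transcription factor. Of these 6 rose (60%) and 1 fell (10%), and Myc rose by 2.58 ± 0.15 (adjusted p = 2.22e-07). Among 26 brakes and transcriptional regulators 14 rose (53.8%) and 6 fell (23.1%). Cdkn1b, the CDK inhibitor p27, fell by 3.18 ± 0.16 (adjusted p = 1.04e-07), and Cdkn1a, or p21, rose by 2.14 ± 0.29 (adjusted p = 6.41e-05).

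**Figure D5:**
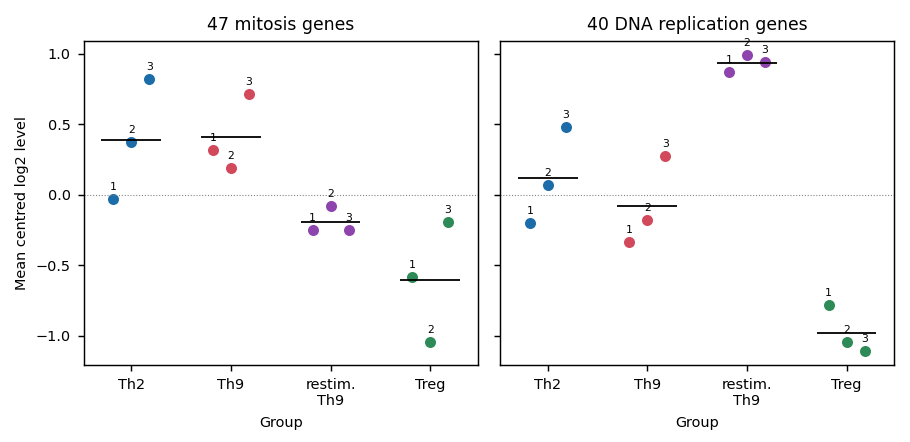
Mean log2 level of the 47 mitosis genes (left) and of 40 DNA replication genes (right) on each array after subtracting each gene's mean over the 12 arrays (y axis), by group (x axis); numbers are replicates and lines group means. Restimulated Th9 arrays lie between -0.25 and -0.08 on the left and between 0.87 and 0.99 on the right.

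A second list of 40 spindle, kinetochore and cytokinesis genes, none of them among the 47, gave 35 higher and 0 lower in Th9 than Treg, and 33 higher and 0 lower in Th2 than Treg, with medians of 1.15 and 1.07. These are 87.5% and 82.5% higher, against 28.7% and 29.3% of all genes. After restimulation 5 rose (12.5%, against 33.1% of all genes) and 11 fell (27.5%, against 30.5%), with a median of -0.30, and 46.8% of the 47 fell; the difference between the lists was not tested. Hjurp, the chaperone of the centromeric histone, fell by 2.01 ± 0.13 (adjusted p = 3.44e-07), and Trip13, which acts on the checkpoint protein MAD2, rose by 1.86 ± 0.23 (adjusted p = 3.73e-05). Over all genes, 35.3% were lower in Th9 than Treg and 33.5% in Th2 than Treg. Against Treg, the replication genes gave 30 higher (75%) and 1 lower (2.5%) in Th9. In Th2 they gave 29 higher (72.5%) and 0 lower. Of 18 condensin and cohesin genes, 9 were higher (50%, against 28.7% of all genes) and 1 lower (5.56%) in Th9. In Th2, 11 were higher (61.1%, against 29.3%) and 2 lower (11.1%). Smc4, a condensin core subunit, was lower in both helper cultures (-2.31 ± 0.13, adjusted p = 1.3e-07, and -2.19 ± 0.13, adjusted p = 1.91e-07), whereas Ncapg of the same complex was higher (1.76 ± 0.18 and 1.97 ± 0.18). Of 16 subunits and partners of the anaphase-promoting complex, 6 were higher (37.5%, near the 28.7% of all genes) in Th9. There 2 were lower (12.5%, against 35.3%). In Th2, 9 were higher (56.2%, against 29.3%) and 3 lower (18.8%, against 33.5%). Between Th9 and Th2 the second spindle list had 1 called gene, Hjurp, higher in Th9 (0.48 ± 0.13, adjusted p = 0.0279). That is 2.5%, against 7.76% of all genes called higher. The replication list had 1 higher (2.5%) and 3 lower (7.5%, against 9.24% of all genes), so neither share exceeds that over all genes.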

How the data were processed

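Scanner output was used as deposited. Per the file headers, Agilent Feature Extraction 10.5.1.1 gave each spot's processed signal, an intensity that is background-subtracted and detrended within the array, on a design annotated on mm8. The deposited series table holds log2 values that appear quantile normalized by the authors, and served as an alternative. The 75th percentile of the signal ranged from 521 to 796. Here log2 processed signal minus that percentile was averaged over spots of a probe, flagged spots and controls left out. Probes well above background on at least 3 of 12 arrays were kept. limma 3.58.1 in R 4.3.3 fitted 1 mean per group over all arrays. On simulated data with 200 of 17933 genes changed, 72% of 2-fold and 92% of 4-fold changes were called, with 5 false calls. The simulated noise was independent between genes, with no slide or replicate shift, so these rates need not hold for the arrays. The number of arrays limits the precision.

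The members, lists, tests and alternatives were chosen with earlier results of these data known. Every array's values are given for Cdk1, Ccnb1, Ccnb2, Plk1, Aurkb, Top2a, Mki67 and Foxm1, for the 4 largest differences per comparison and for up to 4 genes called against the majority. Of other lists, only genes among the 3 largest called differences are named. Same-numbered Th9 and Th2 arrays deviated together (correlations 0.20, 0.18 and 0.41 over all genes), so their numbers were taken as pairs. The block by replicate number changed no call there. Promoter sequences are RefSeq's (GRCm38.p6).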

Additional observations from a re-analysis of the deposited data

How the results depend on the processing

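No called gene changed sign under any alternative. The median of Th9 minus Th2, close to 0 with no gene called, turned from -0.01 to 0.16 with slide as a fixed block, under which 32 of 47 genes kept their sign, and to 0.04 after quantile normalization. Within 1 slide, Th2 minus Treg moved for Cdc25b (0.40, from -0.24, not called), Pttg1 (-1.27) and Anln (2.78). Leaving out 1 array at a time, the median ran from -0.22 to 0.22 for Th9 minus Th2, 0.90 to 1.31 for Th9 minus Treg, 0.80 to 1.28 for Th2 minus Treg and -0.73 to -0.42 for restimulation. With slide as a fixed block, 15 genes were higher in Th9 than Treg and 17 in Th2 than Treg, and after restimulation 3 were higher and 11 lower. The number that rose was also 3 after quantile normalization, in the deposited table and with the mean of a gene's probes. Averaging probes made 2 genes lower in both Treg comparisons, adding Cenpa. With normexp background correction 1 gene, Melk, was higher in Th9 than Th2. Leaving out 1 array at a time gave 0 to 1 genes higher in Th9 than Th2 (1 without Th2 replicate 3), 29 to 41 higher in Th9 than Treg, 27 to 42 in Th2 than Treg, and 3 to 5 rising (3 without Th9 replicate 1) with 15 to 23 falling after restimulation. The cause was not tested.

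With the replicate number as a block, 0 genes were called between Th9 and Th2, 38 were higher in Th9 than Treg, 38 in Th2 than Treg, and 5 rose and 25 fell after restimulation. Outside Th9 and Th2, the same-number correlations were 0.05, 0.14 and 0.12 for Th9 and Treg and 0.02, 0.02 and -0.01 for Th2 and Treg. For restimulated and unstimulated Th9 they were 0.21, 0.11 and 0.095, the first near the lower values of Th9 and Th2 (0.20 and 0.18). Those numbers were not taken as pairs, and the labels do not say whether they are.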
